A study of Mus musculus with 52 samples.

Results

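The promoters of *Tmem168*, *Zmat4*, *Gxylt2*, *Tmtc4*, *Gab1* and *Vdac3* are the 6 gene promoters, of 20633 measured, that were less accessible after tamoxifen in Kdm2a/b-JmjC mouse embryonic stem cells (mESCs) and belong to none of the larger gene families examined in these data. They were chosen by symbol from the 13 promoters past both thresholds of that contrast (limma adjusted p below 0.05 and more than 1.4-fold change). Their values in Kdm2a/b-JmjC are therefore a description, with no test. At the same thresholds, but with its own test, the study reports no significant accessibility change at CpG island promoters in this line. Each symbol had 1 promoter in the tables, and all 6 passed the filter on low values in each of the 4 lines.

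The assay was calibrated ATAC-seq (cATAC-seq). The Tn5 transposase inserts adapters into open chromatin, and *Drosophila* SG4 cells mixed in with the mESCs before nuclei were isolated set the scale. The values are mouse reads over a 400 bp promoter interval divided by a spike-in size factor, called calibrated reads here. There were 26 ATAC libraries with 1.49 to 3.03 M promoter reads each (M, 1000000), and 26 matched genomic DNA libraries that are not analysed here. All cells were grown on gelatine with serum and LIF, and each line was left untreated or given 800 nM 4-hydroxytamoxifen for 96 h.

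Kdm2a/b-JmjC fl/fl cells carry loxP sites around the exons that encode the JmjC domain, the demethylase, in *Kdm2a* and *Kdm2b*. They were derived from mice with 1 ROSA26-CreErt2 allele, and tamoxifen removes the long forms of both proteins while the short forms, made from downstream promoters, stay (3 untreated and 3 treated libraries). The other lines lose the ZF-CxxC domain, the CpG-binding zinc finger shared by long and short forms. Both proteins lose it in Kdm2a/b-CXXC fl/fl cells (4 and 4 libraries), KDM2A alone in Kdm2a-CXXC fl/fl cells (3 and 3), and KDM2B alone in Kdm2b-CXXC fl/fl cells (3 and 3). The Kdm2a-CXXC and Kdm2a/b-CXXC lines were made by CRISPR in *Rosa26::CreERT2* and Kdm2b-CXXC fl/fl mESCs through single targeted clones, and CRE is tamoxifen-inducible in all 4 lines. Untreated cells carry the same alleles and received no tamoxifen, and no group of cells with CRE but without loxP sites is analysed here, so domain loss and any other action of tamoxifen cannot be told apart. The deletions themselves were not checked in these promoter tables.

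CpG islands are stretches of unmethylated, CpG-rich DNA that cover the promoters of many mammalian genes. KDM2A and KDM2B reach them through their ZF-CxxC domain, and their long forms remove dimethyl groups from lysine 36 of histone H3. An open promoter lets transcription factors and RNA polymerase II reach the DNA, and in bulk libraries a promoter open in fewer cells cannot be told apart from one that is less open in each cell.

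The 6 intervals lay on chromosomes 6, 8 and 14 of mm10 (GRCm38), each across the annotated transcription start site of its gene. The intervals were chr6:13607864-13608263 for *Tmem168* (NM_028990, minus strand), chr6:100704534-100704933 for *Gxylt2* (NM_198612, plus strand) and chr14:122983062-122983461 for *Tmtc4* (NM_028651, minus strand). On chromosome 8 they were chr8:22593614-22594013 for *Vdac3* (NM_001198998, minus strand) and chr8:80880280-80880679 for *Gab1* (NM_021356, minus strand), and *Zmat4* (NM_001277239, plus strand) lies on the same chromosome. Between 112 and 235 bases of each interval fell in the first exon, and no other annotated gene overlapped any of the 6.

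All 6 intervals were CpG-rich (GC content 50% or more, and CpG observed over expected 0.6 or more), against 54.6% of the 20630 promoters with sequence. They are less alike in CpG number than this class implies. *Zmat4* held 26 CpG in 400 bp and a GC content of 58.0%, close to the median promoter with 24 CpG and 60.3% GC. *Vdac3* held 60 CpG at 76.5% GC, more CpG than 97.2% of promoters or as many. *Tmtc4* held 51, *Tmem168* and *Gxylt2* 40 each, and *Gab1* 39.

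**Figure D1:**
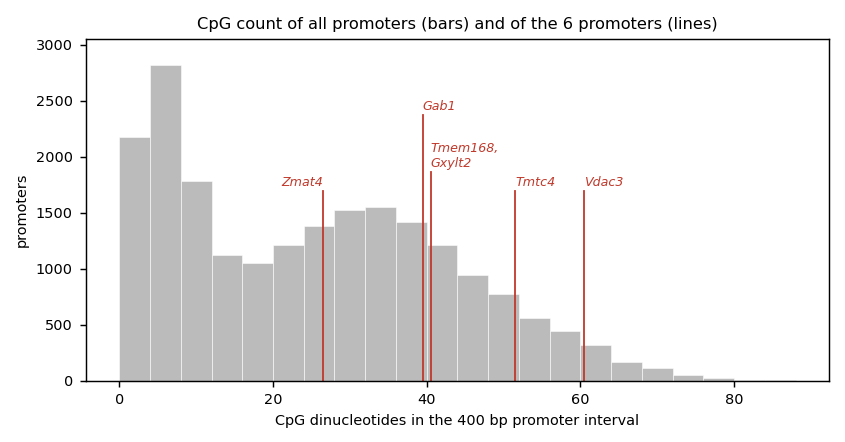
CpG dinucleotides per 400 bp promoter interval (x axis) against the number of promoters (y axis); grey bars, 20630 promoters in bins of 4 CpG, red lines, the 6 promoters. *Zmat4* (26) lies near the median of 24, and *Vdac3* (60) in the upper tail.

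The stretch upstream of the start site also varied in CpG number. It is printed for *Gxylt2*, with few CpG there (9), and for *Tmtc4* (25) and *Vdac3* (30), with many, 5′ to 3′ on the gene's strand, from the edge of the interval to the base before the start site, with each CpG in capitals (RefSeq GRCm38.p6; *Gxylt2* chr6:100704534-100704733, *Tmtc4* chr14:122983284-122983461, *Vdac3* chr8:22593814-22594013).
Gxylt2: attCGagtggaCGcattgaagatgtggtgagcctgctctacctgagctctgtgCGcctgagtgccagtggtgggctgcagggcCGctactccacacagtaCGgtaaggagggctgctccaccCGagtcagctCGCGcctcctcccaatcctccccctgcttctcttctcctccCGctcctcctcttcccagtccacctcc
Tmtc4: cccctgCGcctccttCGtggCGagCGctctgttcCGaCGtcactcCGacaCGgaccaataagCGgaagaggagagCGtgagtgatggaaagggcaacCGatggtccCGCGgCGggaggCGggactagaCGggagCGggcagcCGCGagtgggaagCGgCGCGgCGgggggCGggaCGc
Vdac3: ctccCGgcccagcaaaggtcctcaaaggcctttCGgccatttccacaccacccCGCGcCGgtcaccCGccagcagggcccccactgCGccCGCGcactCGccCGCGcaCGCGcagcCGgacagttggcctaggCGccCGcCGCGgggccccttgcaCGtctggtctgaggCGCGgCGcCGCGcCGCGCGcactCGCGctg
In *Gxylt2* the CpG are spread thinly through the stretch, and in *Tmtc4* and *Vdac3* they run close together.

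A fixed set of 10 core-promoter and factor motifs was searched on both strands of the 400 bp intervals. GGGCGG, the GC box, was in 5 of the 6 (not *Tmem168*), against 56.3% of all promoters and 82.7% of the CpG-rich ones. CACCC was also in 5 of the 6 (not *Zmat4*), against 71.7% of all promoters and 74.9% of the CpG-rich ones. CCAAT was in *Zmat4*, *Gxylt2* and *Tmtc4*, against 40.0% and 37.8%. The TATA box TATAAA was in 0 of the 6, against 10.4% of all promoters and 4.54% of the CpG-rich ones. The E-box CACGTG was in 0, against 9.54% and 11.9%. Also in 0 of the 6 were 5 more motifs, given with their shares of all and of CpG-rich promoters. They were the cyclic AMP response element TGACGTCA (2.56% and 3.7%), the ETS motif CCGGAAG (14.1% and 21.7%) and part of the NRF1 motif, GCATGCGC (3.93% and 6.1%). The others were the YY1 motif AAGATGGCG (2.83% and 4.82%) and the E2F motif GCGGGAA (8.92% and 13.7%). A GGGCGG match can share bases with GCGGGAA. These matches are descriptions of letters in the window.

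Before the values, some facts bear on all of them. The summed calibrated reads of Kdm2b-CXXC varied most, from 1.75 to 3.19 M, and its untreated and treated replicate 1 were the 2 highest (2.96 and 3.19 M). Embryonic stem cell marker promoters ranked at a median percentile of 58.3 in their table (9 promoters of 8 genes in 4 lines, 18.5 to 99.0, the lowest a second *Esrrb* promoter), fibroblast markers at 34.7 (10.1 to 46.7), and promoters of liver, heart, pancreas and B cell genes at 11.8 (2.52 to 22.5). Each line has its own calibration, so calibrated reads were tested only within a line.

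The shift after tamoxifen in Kdm2a/b-JmjC was largest, on the log2 scale, at *Gxylt2*, *Tmem168* and *Zmat4* (about a halving) and smaller at *Tmtc4*, *Gab1* and *Vdac3*. In all 6, each treated library lay below each untreated library. Over the whole table, 13 of 17174 promoters (0.0757%) were past both thresholds, all of them lower, and 23.2% had all treated libraries below all untreated ones. Since the 6 were chosen by this contrast, nothing is read from these counts.

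*Gxylt2* encodes a xylosyltransferase that extends O-glucose on the EGF repeats of Notch. Its promoter held 103, 90.7 and 85.2 calibrated reads in the untreated Kdm2a/b-JmjC libraries and 49.1, 43.8 and 44.0 after tamoxifen. The treated libraries were tightly grouped (45.7 ± 3.00 against 92.9 ± 8.98, SD, n = 3 and n = 3), and the log2 fold change was -1.01 (SE 0.21). *Tmem168* encodes a multi-pass membrane protein. It held 143, 132 and 142 calibrated reads untreated and 88.6, 65.8 and 67.5 after tamoxifen, a log2 fold change of -0.92 (SE 0.18). Treated replicate 1 was the highest of the 3 here, and also at *Gxylt2*, *Tmtc4*, *Gab1* and *Vdac3*, but the lowest at *Zmat4*.

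*Zmat4* encodes a zinc finger protein of the matrin type. Its untreated libraries held 126, 137 and 102 calibrated reads and its treated ones 50.2, 81.4 and 64.5, a log2 fold change of -0.90 (SE 0.19). It had the widest relative spread of the 6 without treatment, with a coefficient of variation of 14.8% where counting alone gives 8.96%. At *Tmtc4*, an O-mannosyltransferase of the endoplasmic reticulum that acts on cadherins, the libraries held 195, 206 and 190 untreated and 155, 97.1 and 122 treated (log2 fold change -0.68, SE 0.15). The groups stayed apart, with the treated libraries more scattered than the untreated ones.

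*Gab1* encodes a docking protein that couples receptor tyrosine kinases to SHP2 and PI3-kinase. Its promoter held 261, 267 and 247 calibrated reads untreated and 214, 142 and 168 after tamoxifen, a log2 fold change of -0.58 (SE 0.13). *Vdac3*, an anion channel of the mitochondrial outer membrane, had the highest level and the smallest shift, from 277, 320 and 292 to 240, 187 and 191 calibrated reads (log2 fold change -0.53, SE 0.13). The order of the untreated levels was *Vdac3*, *Gab1*, *Tmtc4*, *Tmem168*, *Zmat4* and *Gxylt2*; all intervals are of one length. The first 4 did not overlap one another, while *Tmem168* overlapped *Zmat4* and *Zmat4* overlapped *Gxylt2*. On the scale of all promoters these levels ran from the 58.4th percentile (*Gxylt2*) to the 98.4th (*Vdac3*).

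**Figure D2:**
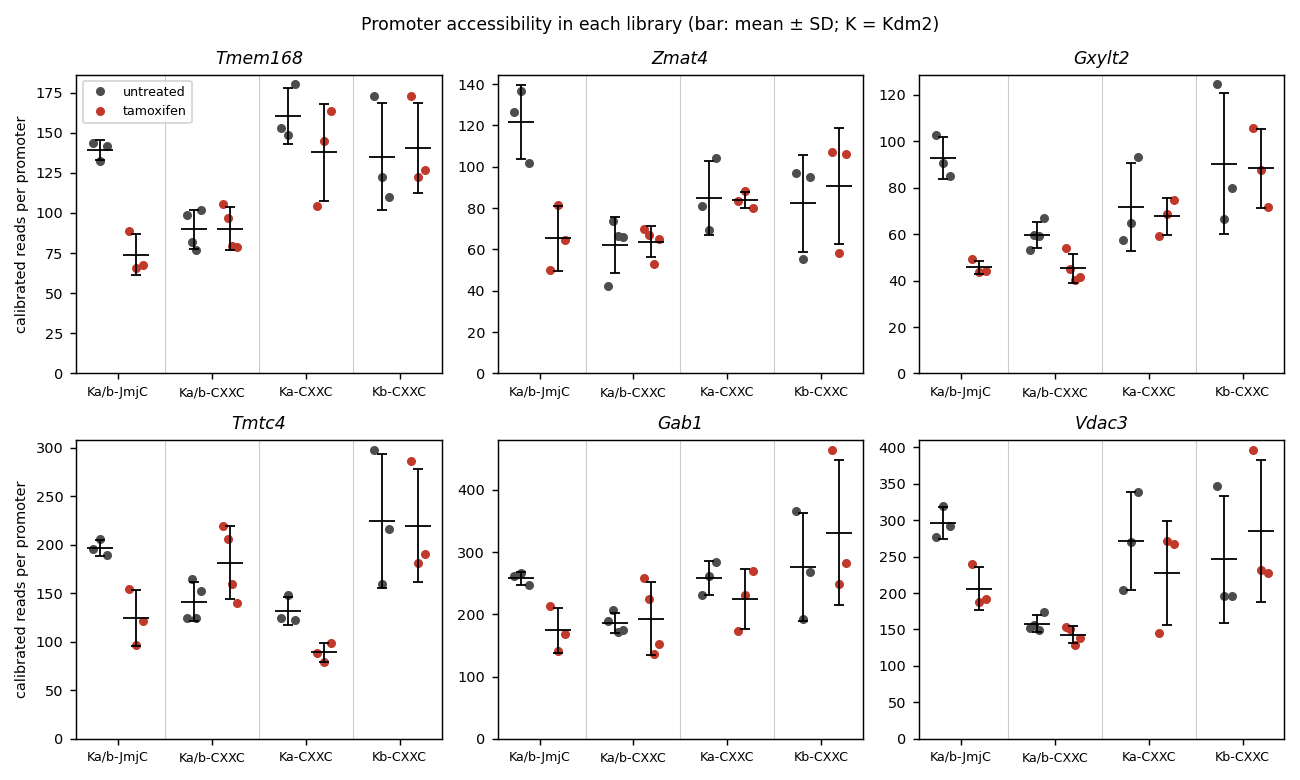
Calibrated reads (y axis, from 0) of each promoter in each of the 26 libraries, by line (x axis; Ka/b is Kdm2a/b, Ka is Kdm2a, Kb is Kdm2b); points, libraries, bars, mean ± SD. Only levels within a line share a calibration. In Kdm2a/b-JmjC the treated points lie below the untreated ones at all 6 promoters, and in the other lines this holds only at *Tmtc4* in Kdm2a-CXXC.

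The members' adjusted p in this contrast, by limma, ran from 0.0108 (*Tmem168*) to 0.0481 (*Vdac3*), inside the threshold of 0.05. Nearest inside were *Vdac3* (adjusted p 0.0481 by limma) and *Dlx2* (0.0474), and nearest outside among lower promoters were *Ap3m2* (adjusted p 0.0298, log2 fold change -0.49, short of the fold threshold) and NM_172505 (0.0481, log2 fold change -0.31). The count of members past both thresholds depended on single libraries. It was 0 without untreated replicate 1, without untreated replicate 2 or without tamoxifen replicate 3, 3 without tamoxifen replicate 2, 5 without untreated replicate 3 and 6 without tamoxifen replicate 1. Each member stayed lower in each of these fits.

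The level of all promoters also shifted in this line. Over the 17174 tested promoters the log2 fold changes had a median of -0.21 with calibration and of -0.0067 under TMM scaling, which sets each library against its own promoters. With TMM the members' log2 fold changes were -0.80 (*Gxylt2*), -0.71 (*Tmem168*), -0.70 (*Zmat4*), -0.48 (*Tmtc4*), -0.38 (*Gab1*) and -0.32 (*Vdac3*), so each lay below the median promoter, and the order was kept. The treated libraries of all 6 were still below the untreated ones, where 5.71% of tested promoters were. With TMM 0% of promoters, and so none of the 6, passed both thresholds, the smallest limma adjusted p of a member being 0.668. These are the libraries by which the 6 were chosen, so nothing is read from these counts either.

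**Figure D3:**
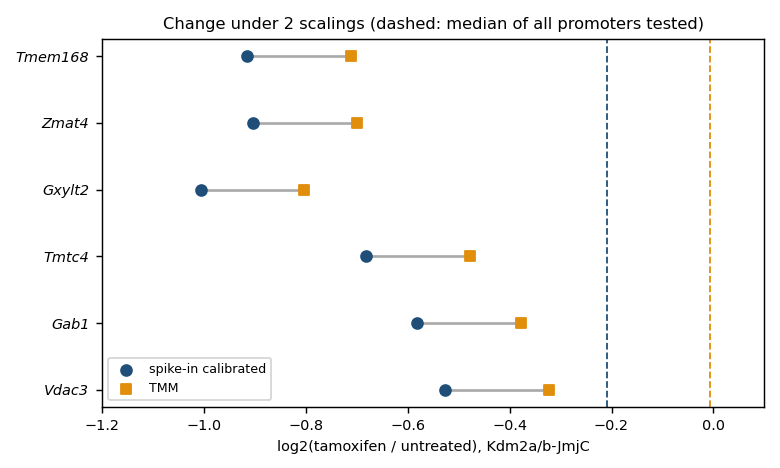
Log2 fold change of each promoter after tamoxifen in Kdm2a/b-JmjC (x axis) with spike-in calibration (circles) and TMM scaling (squares); dashed lines, medians of the 17174 tested promoters (-0.21 and -0.0067). All 6 lie to the left of both medians under either scaling.

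The contrasts in the CXXC lines took no part in the choice of the 6 promoters and were tested. None of the 6 passed the thresholds in any of these 3 lines, where limma called 0% of the promoters (of 16413 for Kdm2a/b-CXXC, 17727 for Kdm2a-CXXC and 17930 for Kdm2b-CXXC), and edgeR and DESeq2 called none of the 6 either. These fits had no replicate block. With one, limma called *Tmtc4* in Kdm2a-CXXC (adjusted p 0.0464), as 188 of 17727 promoters were called there. In Kdm2b-CXXC it then called 5 of 17930 promoters and 0 members. By limma without the block, 0 members had an unadjusted p below 0.05 with both ZF-CxxC domains lost, 1 did in Kdm2a-CXXC and 0 did in Kdm2b-CXXC, beside 4.65%, 8.39% and 0.669% of all promoters. With TMM scaling 3 of the 6 did in Kdm2a/b-CXXC (*Gxylt2* and *Vdac3* lower, *Tmtc4* higher), beside 9.64% of all promoters. The median log2 fold change of the members was 0.0062, -0.23 and 0.097, beside 0.087, -0.18 and 0.099 over all tested promoters.

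In Kdm2a/b-CXXC cells, in which both proteins lose CpG island binding, the 6 promoters did not move together. *Gxylt2* held 53.3, 59.8, 59.0 and 66.8 calibrated reads untreated and 54.1, 45.0, 40.1 and 41.7 treated. Of the 4 treated libraries, 3 were below all untreated ones, and the log2 fold change was -0.40 (95% interval -0.85 to 0.056, limma adjusted p = 0.996). With TMM scaling the 4 treated libraries were each below the 4 untreated ones, as at 2.5% of tested promoters, with a log2 fold change of -0.49 (unadjusted p from limma 0.010, adjusted p 0.328). *Tmtc4* leaned the other way, from 124, 164, 125 and 152 to 220, 206, 159 and 140 calibrated reads. The groups overlapped, and the log2 fold change was 0.34 (95% interval -0.011 to 0.70, limma adjusted p = 0.996). With TMM it was 0.26 (95% interval 0.036 to 0.48, unadjusted p from limma 0.023, adjusted p 0.419).

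The other 4 promoters had calibrated log2 fold changes between -0.14 and 0.056 in Kdm2a/b-CXXC. *Vdac3* held 158 ± 11.3 calibrated reads untreated and 143 ± 11.2 treated (SD, n = 4 and n = 4), and its log2 fold change of -0.14 had a 95% interval from -0.50 to 0.22. With TMM it was -0.23 (95% interval -0.46 to -0.0019, unadjusted p from limma 0.048, adjusted p 0.512). *Gab1* had 186 ± 16.2 and 193 ± 58.7, and its treated libraries were split into a pair above (259 and 225) and a pair below (136 and 152) all the untreated ones (171 to 207). *Tmem168* (89.7 ± 12.3 and 90.1 ± 13.4) and *Zmat4* (62.1 ± 13.6 and 63.7 ± 7.50) overlapped in both groups. Their 95% intervals, -0.39 to 0.40 and -0.38 to 0.49, do not reach the log2 fold changes that *Tmem168* and *Zmat4* had in Kdm2a/b-JmjC, which were chosen for their size, and the 2 lines have no common calibration.

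In Kdm2a-CXXC cells *Tmtc4* stood apart from the other members. It held 124, 148 and 123 calibrated reads untreated and 88.9, 79.3 and 99.0 after tamoxifen, with no overlap; 13.4% of promoters in this line had all treated libraries below all untreated ones. The log2 fold change was -0.56 (95% interval -0.97 to -0.15, unadjusted p from limma 0.0073, adjusted p 0.581). With TMM it was -0.39, and the groups then overlapped (6.24% of promoters were still apart, treated below untreated). The nearest promoter on one side, *Ggact* at 70.1 kb, held 72.5 ± 10.2 calibrated reads untreated and 41.9 ± 12.2 treated in this line (SD, n = 3 and n = 3; log2 fold change -0.81, limma adjusted p 0.579), and -0.29 was its log2 fold change in Kdm2a/b-JmjC.

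*Tmem168*, *Gab1* and *Vdac3* had log2 fold changes of -0.24, -0.22 and -0.27 in Kdm2a-CXXC, near the median of all promoters there (-0.18). Treated replicate 1 was the lowest of the 6 libraries at each of them, with 105, 173 and 146 calibrated reads. *Zmat4* (84.9 ± 17.8 and 83.9 ± 4.05) and *Gxylt2* (71.7 ± 18.9 and 67.6 ± 7.86) differed by less than the spread of their untreated libraries (SD, n = 3 and n = 3).

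In Kdm2b-CXXC cells the calibrated values were the most scattered. *Gab1* held 367, 193 and 269 calibrated reads untreated and 464, 248 and 282 treated (log2 fold change 0.26, 95% interval -0.46 to 0.98). *Vdac3* held 347, 196 and 196 untreated and 397, 232 and 227 treated (log2 fold change 0.21, 95% interval -0.51 to 0.94). Replicate 1 was the highest library of its group at all 6 promoters, with and without tamoxifen, as it was for the sum over all promoters. *Tmem168*, *Zmat4*, *Gxylt2* and *Tmtc4* had log2 fold changes of 0.066, 0.13, 0.0034 and -0.016, each with an interval of about the same width. A shift of the size seen in Kdm2a/b-JmjC at *Tmtc4*, -0.68, lies within the 95% interval of *Tmtc4* here, -0.74 to 0.71. With TMM scaling the interval was narrower (-0.34 to 0.10 around -0.12) and did not reach the -0.48 that *Tmtc4* had with TMM in Kdm2a/b-JmjC, a value chosen for its size.

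**Figure D4:**
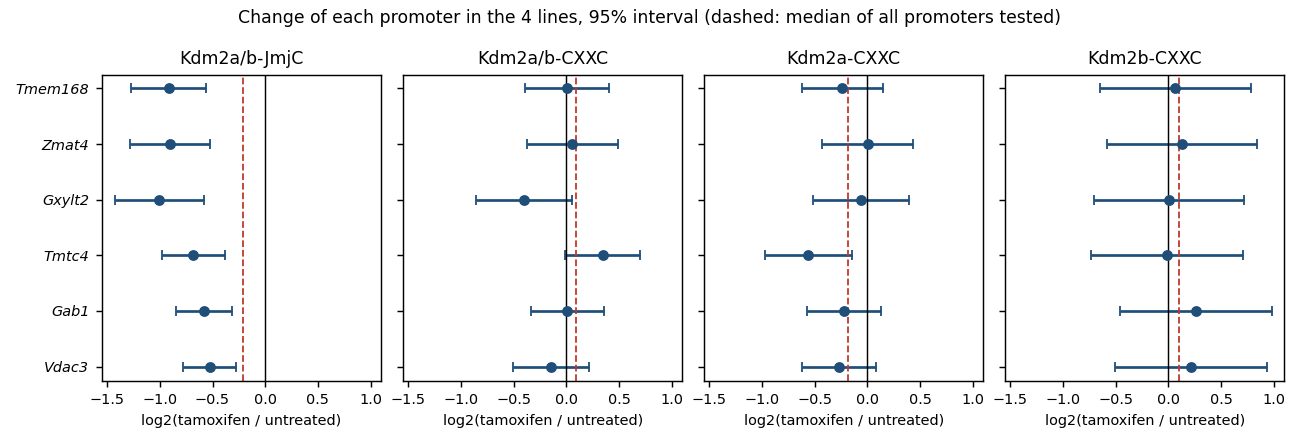
Log2 fold change after tamoxifen (x axis) with its 95% interval for each promoter in each line; dashed lines, medians of all tested promoters (-0.21, 0.087, -0.18 and 0.099). Outside Kdm2a/b-JmjC, where the promoters were chosen, only the interval of *Tmtc4* in Kdm2a-CXXC leaves out 0 with calibration.

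Whether the response differed between the CXXC lines was tested in 1 limma fit over the 3 lines, in which 0% of 16205 promoters passed for each of the 3 pairs of lines. For *Tmtc4* the log2 fold change in Kdm2a/b-CXXC minus that in Kdm2a-CXXC was 0.90 (95% interval 0.25 to 1.55, unadjusted p from limma 0.0064, adjusted p 0.813). This was the only one of the 18 member differences with an unadjusted p under 0.05. The matching share of all 16205 promoters was not counted. The 0.90 also includes an offset between the lines. Their median promoters had calibrated log2 fold changes of 0.087 (Kdm2a/b-CXXC) and -0.18 (Kdm2a-CXXC). Scaled by TMM, *Tmtc4* had 0.26 where both proteins lose the domain and -0.39 where only KDM2A does. The differences of the other members between these 2 lines lay between -0.34 (*Gxylt2*) and 0.24 (*Tmem168*).

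As a share of each library's promoter reads, the members can be set side by side across lines, as a description. The Kdm2a/b-JmjC libraries are those by which the 6 were chosen, a choice that favours high untreated values. The same counts over all promoters were not made, so nothing is read from the counts below. In untreated Kdm2a/b-JmjC cells all 6 shares lay above the median of the 20 libraries of the other lines. *Zmat4* had 66.3 ± 8.40 reads per M promoter reads there, *Gxylt2* 50.7 ± 5.32 and *Vdac3* 162 ± 7.94 (SD, n = 3), and each of these 9 values was above all 20 libraries of the other lines (highest 50.4, 45.8 and 135). After tamoxifen they had 41.9 ± 12.6, 28.9 ± 0.70 and 130 ± 10.3, within or near the range of the other lines (lowest 28.9, 26.5 and 75.2). *Tmem168* went from 76.1 ± 5.44 to 46.6 ± 4.96, where 2 of the 3 treated libraries were below all 20 others (49.1 to 71.9). *Tmtc4* (107 ± 1.53 to 78.2 ± 13.0) and *Gab1* (141 ± 3.49 to 110 ± 15.4) stayed within the range of the other lines. For *Tmtc4* the low part of that range is Kdm2a-CXXC alone, whose libraries held 38.9 to 64.5. Those of Kdm2a/b-CXXC and Kdm2b-CXXC held 79.6 to 123. The treated Kdm2a/b-JmjC libraries held 91.3, 65.4 and 77.9.

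Of the 6, *Vdac3*, *Zmat4* and *Gab1* lie on chromosome 8, which holds 5.61% of the promoters tested in Kdm2a/b-JmjC. The median chromosome 8 promoter had a log2 share 0.36 higher in untreated Kdm2a/b-JmjC cells than the mean of the other 3 lines, against -0.051 on chromosome 6 and -0.0051 on chromosome 14. The same difference was 0.80 for *Zmat4*, 0.57 for *Vdac3* and 0.25 for *Gab1*. It was 0.28 for *Tmem168*, 0.47 for *Gxylt2* and 0.42 for *Tmtc4* on the other chromosomes. For *Tmtc4* the mean of the other lines includes a low Kdm2a-CXXC. It had 57.2 untreated reads per M there, 93.4 in Kdm2a/b-CXXC, 98.1 in Kdm2b-CXXC and 107 in Kdm2a/b-JmjC. The untreated Kdm2a/b-JmjC libraries took part in the choice of the members, so the members' differences are a description. After tamoxifen the median promoter of chromosome 8 had a log2 fold change of -0.23 in this line, beside -0.21 on chromosomes 6 and 14.

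The promoters next to the members are given for Kdm2a/b-JmjC as a description, since the members and not their neighbours were chosen by this contrast. Of the 12 nearest promoters, 1 on each side of each member, 10 passed the filter on low values and 0 passed both thresholds by limma, with log2 fold changes between -0.45 and 0.33 and a median of -0.14. *Bmt2*, 69.9 kb from *Tmem168*, had -0.39 (adjusted p 0.108), and *Usp38*, 134 kb from *Gab1*, had -0.38 (adjusted p 0.109); these 2 and *Pdzrn3*, 3 of the 10, were at an unadjusted p under 0.05, as 20.6% of all tested promoters were. *Shq1*, 33.6 kb from *Gxylt2*, had -0.015. *Dkk4*, 30.2 kb from *Vdac3*, was nearly closed (18.5 ± 7.85 calibrated reads, SD, n = 3).

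The members were compared with their pathways from lists of partners and paralogs, which held 52 promoters, 50 of them tested in Kdm2a/b-JmjC. By limma 0 passed both thresholds in any line. An unadjusted p below 0.05 was found for 8 of them in Kdm2a/b-JmjC and 6 in Kdm2a-CXXC, for 1 in Kdm2a/b-CXXC and for 0 with loss from KDM2B alone, beside 20.6%, 8.39%, 4.65% and 0.669% of all tested promoters. The median log2 fold change of the lists in Kdm2a/b-JmjC was -0.20, beside -0.21 over all tested promoters.

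Around *Gxylt2*, the 13 promoters of enzymes that glycosylate EGF repeats and of their Notch substrates had a median log2 fold change of -0.20 in Kdm2a/b-JmjC. *Gxylt1*, the paralog that adds the same xylose, held 139 ± 6.88 calibrated reads untreated and 127 ± 2.04 treated (log2 fold change -0.13, SD, n = 3 and n = 3). Around *Tmtc4*, the median of the 6 O-mannosylation promoters was -0.14. Its paralogs *Tmtc1*, *Tmtc2* and *Tmtc3* had -0.38, -0.050 and -0.098, and *Pomt1*, which starts O-mannose chains on dystroglycan, had -0.59 with an adjusted p of 0.0870 by limma. In Kdm2a-CXXC, *Tmtc1* had -0.53 (limma adjusted p 0.581), close to the -0.56 of *Tmtc4* in that line. *Tmtc2* and *Tmtc3* had -0.21 and -0.16 there, near the median of all tested promoters (-0.18).

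Around *Gab1*, 16 promoters of adaptors, partners and receptors had a median of -0.16 in Kdm2a/b-JmjC. The paralogs *Gab2* and *Gab3* had log2 fold changes of -0.11 and 0.13. *Vdac1* and *Vdac2*, the other voltage-dependent anion channels, had -0.27 and -0.20 in a list of 11 mitochondrial outer membrane promoters with a median of -0.20. The zinc finger matrin-type genes *Zmat1*, *Zmat2*, *Zmat3* and *Zmat5* had -0.29, -0.20, -0.32 and -0.40. In each family the member lay below its paralogs in this line, the contrast by which it was chosen.

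In the CXXC lines the correlations between members had both signs. With TMM scaling and each line's mean removed, the 15 pairs of members had correlations between -0.40 (*Gxylt2* and *Tmtc4*) and 0.56 (*Tmem168* and *Vdac3*) over the 20 CXXC libraries, with a median of 0.024 and 9 of 15 above 0. *Gxylt2* also correlated with *Vdac3* (0.53) and with *Tmem168* (0.34). No matching value over all pairs of promoters was computed. The libraries of a pair share depth and scaling, and no test was made.

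Over all 26 libraries and 16030 promoters, the patterns most like each member's were those of *Kremen1* (r = 0.81) and *Stau1* (0.80) for *Tmem168*, *Plcg1* (0.74) and *Aldh3a2* (0.71) for *Zmat4*, and *Msh6* and *Adrm1* (both 0.76) for *Gxylt2*. For *Tmtc4* they were *Lysmd3* and *Tc2n* (both 0.70), for *Gab1* *Prkcz* (0.76) and *Alkbh3os1* (0.72), and for *Vdac3* *Rgs6* (0.76) and *Clcn7* (0.72). These are the 2 highest of 16030 values for each member, of which the 99th percentile lay between 0.50 and 0.54. Treatment was not taken out, and the 26 include the Kdm2a/b-JmjC libraries by which the members were chosen. That favours promoters that also fell there, and *Msh6* is itself one of the 13 past both thresholds in that line. The 15 pairs of members had a median correlation of 0.42 over the 26 libraries and of 0.024 over the 20 CXXC libraries.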

How the data were processed

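Each deposited ReadCount column is a signal: mouse reads over a 400 bp promoter divided by a spike-in size factor. For these values the authors aligned reads with Bowtie 2 to joined mm10 and dm6 genomes, removed reads that mapped more than once, duplicates, blacklisted and mitochondrial reads, and took DESeq2 size factors from *Drosophila* reads corrected by the genomic DNA mixing ratio (versions are not given in the sources used here). The deposited fold changes, standard errors, statistics and p-values of the authors' own comparison were not used. Libraries were grouped by their labels.

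Reads were recovered from the steps between values (100% whole within 0.01 read, size factors 0.718 to 1.41). Promoters were kept by filterByExpr of edgeR (4.0.16) and tested two-sided, within a line, with limma-trend (limma 3.58.1) on log2(calibrated reads + 1), which understates changes of low values. Adjusted p-values are Benjamini-Hochberg over all tested promoters, and past both thresholds means below 0.05 after adjustment with more than a 1.4-fold change. The difference between CXXC lines was an interaction in 1 fit. Intervals are 95%. Alternatives were TMM and median-of-ratios scaling, edgeR, DESeq2 (1.42.0), pseudocounts of 0.5 and 5, no filter, a replicate block and leaving out each library. The fits were tested on simulated data. The study calls its libraries biological replicates.

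The members, lists, motifs and tests were chosen with earlier results of these data known. Named besides the members were the nearest promoter on each side, 2 promoters either side of the thresholds, the 2 most correlated promoters, list genes past the thresholds (0) and paralogs. *Ggact*, *Bmt2*, *Usp38*, *Pdzrn3*, *Shq1* and *Dkk4* are among the neighbours, and *Pomt1* was named after its value was seen. Symbols matched 99.1% of RefSeq identifiers. The promoter sequence of *Zmat4* is not reported here.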

Additional observations from a re-analysis of the deposited data

How the results depend on the processing

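In Kdm2a/b-JmjC the count of members past both thresholds, 6, was 0 with TMM, 0 with median-of-ratios scaling and 2 with DESeq2, which gave no adjusted p for the other 4; leaving out 1 library gave 0 to 6. Their median log2 fold change, -0.79, became -0.59 with TMM and -0.59 with median of ratios. Across promoters, deviations of same-number libraries correlated weakly (-0.0090 to 0.073), and every library correlated best with its own number only in Kdm2a/b-JmjC. These correlations leave out each library's overall level, so they cannot show pairing of level. In Kdm2a-CXXC the summed calibrated reads of replicates 1, 2 and 3 were 2.13, 2.30 and 2.51 M untreated and 1.76, 2.04 and 2.33 M treated. In Kdm2b-CXXC they were 2.96, 1.75 and 2.12 M and 3.19, 1.98 and 2.11 M. Untreated and treated replicates had the same order in these lines, but not in Kdm2a/b-JmjC or Kdm2a/b-CXXC. With the replicate block the members' median stayed at -0.79 there with 6 past both thresholds, and in Kdm2a-CXXC the block gave 1 in place of 0, *Tmtc4* (adjusted p 0.0464), as the calls over all promoters went from 0 to 188; it changed no other member's call.

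In the CXXC lines no other alternative called a member, but values near 0 changed sign. In Kdm2a/b-CXXC, TMM gave -0.082 for *Tmem168*, -0.030 for *Zmat4* and -0.079 for *Gab1*, and median of ratios -0.084, -0.031 and -0.080. In Kdm2a-CXXC, *Gxylt2* was 0.11 with either scaling, and *Zmat4* was -0.0079 with edgeR and -0.0091 with DESeq2. In Kdm2b-CXXC, *Tmem168* was -0.036 with TMM and -0.039 with median of ratios, and *Gxylt2* was -0.098, -0.10, -0.027 and -0.027 with TMM, median of ratios, edgeR and DESeq2. Leaving out 1 library at a time gave ranges across 0 in Kdm2a/b-CXXC for *Tmem168* (-0.076 to 0.067), *Zmat4* (-0.11 to 0.15) and *Gab1* (-0.15 to 0.16). In Kdm2a-CXXC they were -0.13 to 0.16 for *Zmat4*, -0.20 to 0.14 for *Gxylt2* and -0.46 to 0.021 for *Vdac3*. In Kdm2b-CXXC they were -0.090 to 0.26 for *Tmem168*, -0.13 to 0.41 for *Zmat4*, -0.19 to 0.26 for *Gxylt2*, -0.24 to 0.21 for *Tmtc4*, -0.012 to 0.49 for *Gab1* and -0.048 to 0.49 for *Vdac3*. The cause was not tested. The members held 41 to 354 reads per library in the CXXC and JmjC lines. At the mean reads of each member's untreated libraries, counting error alone gives 5.72% to 12.8% per library, and more at the lowest counts. In Kdm2b-CXXC the calibrated spread was wider. Calibrated shifts there within the 95% intervals were not detectable in the main fit, which has no replicate block, while the TMM intervals were narrower.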
